A study of Homo sapiens with 12 samples.

Results

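SAHA was compared with its solvent DMSO in AGS, an established line of human gastric adenocarcinoma cells, by small RNA sequencing. The comparison used 6 of the 12 libraries of the series: 3 AGS libraries labelled SAHA, at 5 µM for 24 h, and 3 labelled DMSO, the solvent alone for the same time. The other 6 libraries came from HGC-27, a second gastric cancer line, under the same conditions, and they entered the same fit and served to test whether the responses of both lines differed. All groups were cultured in RPMI 1640 with 10% fetal bovine serum, and the labels name no genetic change in any of them. The labels number the replicates from 1 to 3 without saying whether they were separate cultures, and p-values measure the spread between these libraries alone, which may be technical. Each microRNA is 1 mature name. Of 2909 entries in the count table, 2049 carried annotated names, 1906 in all, and 608 of these names had enough counts to be tested.

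MicroRNAs are short RNAs that guide Argonaute proteins to messenger RNAs. A hairpin transcript is cut by Drosha in the nucleus and by Dicer in the cytoplasm into a duplex of a 5p and a 3p arm, of which the guide strand is kept and the passenger strand is mostly lost. Pairing rests mainly on the seed, bases 2 to 8 of the mature strand, so microRNAs with the same seed share many predicted targets. SAHA, or vorinostat, blocks the zinc-dependent histone deacetylases and raises acetylation of histones and of other proteins. It changes the transcription of many genes in both directions, and the hosts of microRNA hairpins can be among them.

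The mature sequences below are those the results turn on, from RefSeq for GRCh38.p14, written 5′ to 3′ with the seed in capitals. The first set is the miR-34 and miR-449 family, in which the miR-449 members rose and miR-34a-5p fell. The seed of miR-449c-5p is shifted by 1 base relative to the other members shown.
miR-449c-5p: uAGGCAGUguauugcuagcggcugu
miR-449a: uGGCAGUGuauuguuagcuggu
miR-449b-5p: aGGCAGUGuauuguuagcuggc
miR-34a-5p: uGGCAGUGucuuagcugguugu

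A few seeds recur across the miR-17 to miR-92 clusters, and the set with the seed AAAGUGC fell as a whole. miR-93-5p is its relative from the chromosome 7 cluster, and miR-92a-1-5p is the passenger strand with the largest fall in the clusters.
miR-17-5p: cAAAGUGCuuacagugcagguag
miR-20a-5p: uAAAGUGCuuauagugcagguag
miR-93-5p: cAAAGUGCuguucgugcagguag
miR-92a-1-5p: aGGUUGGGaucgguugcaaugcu

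For the miR-181 family, the 3p passenger strands tell 2 gene loci apart, whereas each 5p guide can come from both. miR-181a-3p and miR-181b-3p come from chromosome 1, and miR-181a-2-3p and miR-181b-2-3p from chromosome 9.
miR-181a-5p: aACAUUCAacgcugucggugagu
miR-181b-5p: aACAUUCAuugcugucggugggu
miR-181a-3p: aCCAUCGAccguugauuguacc
miR-181b-3p: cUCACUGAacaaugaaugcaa
miR-181a-2-3p: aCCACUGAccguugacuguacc
miR-181b-2-3p: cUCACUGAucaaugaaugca

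A further set holds microRNAs that were blank or close to blank with DMSO, and the let-7 passenger strands that fell.
miR-891a-5p: uGCAACGAaccugagccacuga
miR-892a: cACUGUGUccuuucugcguag
miR-888-5p: uACUCAAAaagcugucaguca
miR-654-3p: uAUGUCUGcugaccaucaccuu
miR-184: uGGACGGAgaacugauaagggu
let-7c-3p: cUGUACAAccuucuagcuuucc
let-7e-3p: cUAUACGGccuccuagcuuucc

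The last set differed in its response between AGS and HGC-27.
miR-7-5p: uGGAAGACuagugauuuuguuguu
miR-516a-5p: uUCUCGAGgaaagaagcacuuuc
miR-216b-5p: aAAUCUCUgcaggcaaauguga

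AGS libraries held 2665109 to 4220848 counts, 735 to 940 annotated names were listed in each, and 3 counts in a library correspond to 0.835 to 1.40 CPM. Levels are CPM, annotated counts relative to the library's TMM-scaled total. The first principal component of the AGS libraries held 63.4% of the variance, and the SAHA libraries lay on one side of it and the DMSO libraries on the other. All 10 gut epithelium markers examined were listed, with a sum of 7102 to 8596 CPM with SAHA and 4705 to 9761 CPM with DMSO. AGS DMSO 2 stood apart from its replicates: it held miR-192-5p at 6446 CPM against 2336 and 2700 CPM, miR-375 at 44.3 CPM against 0.835 and 3.74 CPM, and the smooth muscle marker miR-143-3p at 3438 CPM against 988 and 493 CPM. AGS SAHA 3 stood apart as well. On the second component SAHA 3 lay at -8.29 and DMSO 2 at -7.59, and the other AGS libraries from -0.32 to 8.44. Muscle markers summed to 134 to 1077 CPM with SAHA and 33.7 to 199 CPM with DMSO, and neuron markers to 81.1 to 404 CPM and 19.8 to 77.6 CPM. SAHA 3 was the lowest SAHA library for both, with miR-1-3p at 129 CPM against 542 and 1027 CPM. It held miR-9-5p at 81.1 CPM against 247 and 390 CPM. None of these muscle and neuron markers was called, and their part in other results was not tested. Blood markers summed to 168 to 246 CPM with SAHA and 249 to 505 CPM with DMSO, with miR-223-3p at or near 0 in every library. In RNA from whole cultures, fewer cells of a kind and less RNA per cell cannot be told apart.

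SAHA changed the levels of many microRNAs of AGS cells in both directions. Of the 608 tested, 161 were called (26.5%), 91 higher (15%) and 70 lower (11.5%), where a call is an adjusted p under 0.05 in edgeR's quasi-likelihood test. Those called lower had a median level of 217 CPM with DMSO, those called higher 16.5 CPM and the others 21.0 CPM. Together the 91 made up 2.07% to 2.34% of annotated counts in the DMSO libraries and 3.58% to 3.83% in the SAHA libraries, whereas the 70 went from 50.4% to 53.8% down to 44.0% to 46.3%. miR-21-5p, whose call ended in 7 of the 13 alternatives, alone made up 37.3% to 39.6% of annotated counts in the DMSO libraries and 32.8% to 36.0% in the SAHA libraries, and so most of the sum of the 70. By mean level, 31 were called higher and 4 lower of the 199 under 10 CPM, 29 and 20 of the 188 from 10 to 100 CPM, 26 and 31 of the 140 from 100 to 1000 CPM, 5 and 10 of the 68 from 1000 to 10000 CPM, and 0 and 5 of the 13 above. Higher calls were thus about as frequent up to 1000 CPM, whereas lower calls were rare under 10 CPM. A change of 2-fold or more was seen for 51 of the higher and 19 of the lower calls. The SAHA and DMSO libraries did not overlap for 235 microRNAs (38.7%), among them 158 of the 161 calls. A lack of overlap thus adds little to a call. The split rests in part on the scaling: with plain totals in place of TMM 116 were higher and 37 lower, and with the predicted entries in the fit 59 were higher and 112 lower. Those settings moved the median of all microRNAs, 0.08 on the log2 scale, by 0.19 and by -0.21, so a change is relative to the scaling used. Leaving out a single library gave 97 (without DMSO 1), 100 (SAHA 1), 104 (SAHA 2), 135 (SAHA 3), 145 (DMSO 2) and 135 (DMSO 3) calls. In all, 34 higher and 39 lower calls held without each AGS library in turn.

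**Figure D1:**
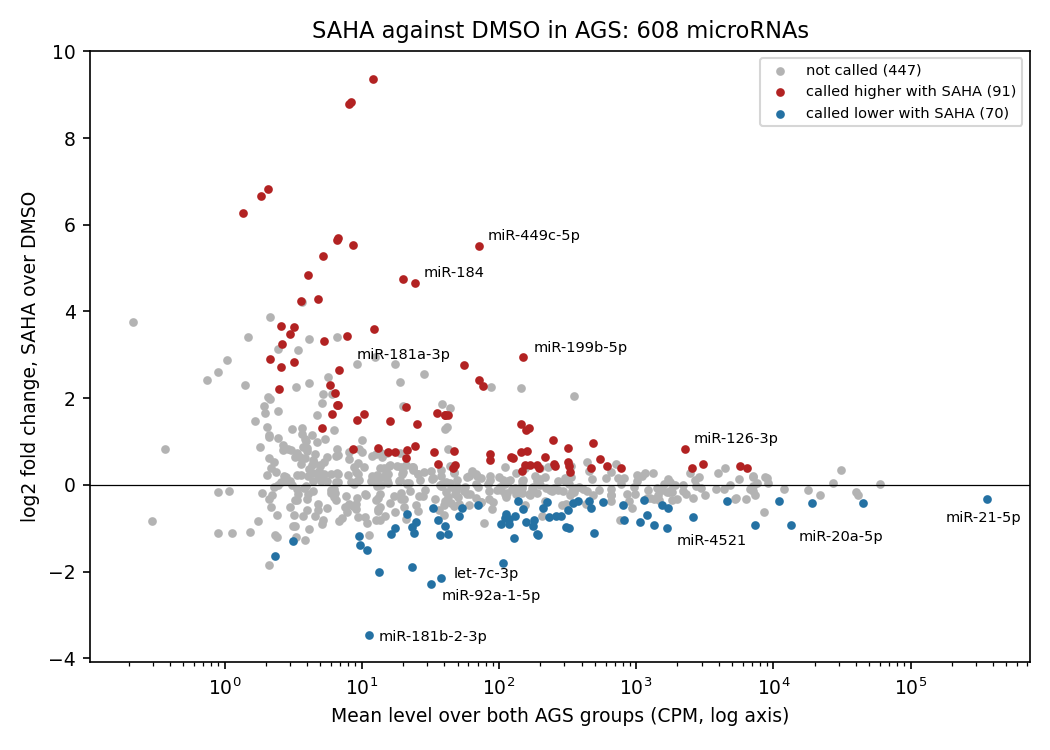
Log2 fold change of SAHA over DMSO in AGS (vertical axis) against the mean level over both groups in CPM (log axis) for 608 microRNAs. Red points are the 91 called higher, blue points the 70 called lower and grey points the rest. The large rises sit at low levels and the falls reach the most abundant microRNAs. Fitted values above 6 belong to microRNAs listed in no DMSO library.

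The microRNAs with the largest rises were nearly silent with DMSO. miR-891a-5p, from an epididymis and testis cluster on chromosome X (chrX:146027794-146027872), stood at 24.9, 20.3 and 27.4 CPM with SAHA and 0, 0 and 0 CPM with DMSO, at least 22.4-fold higher against a floor of 3 counts per library (adjusted p = 7.2e-05). miR-483-3p, from an intron of the fetal growth factor gene IGF2 on chromosome 11 (chr11:2134134-2134209), stood at 20.1, 18.6 and 11.1 CPM with SAHA and 0, 0 and 0 CPM with DMSO, at least 15.4-fold higher (adjusted p = 0.00021). miR-654-3p, of the imprinted DLK1-DIO3 region on chromosome 14 (chr14:101040219-101040299), stood at 14.1, 14.1 and 19.9 CPM with SAHA and 0, 0 and 0 CPM with DMSO, at least 14.8-fold higher (adjusted p = 0.00035). These 3 were the only names with 10 or more counts in every SAHA library and none in any DMSO library, and no name showed the opposite pattern. In HGC-27 the same 3 reached at most 49, 21 and 30 counts in a SAHA library and 0, 0 and 2 counts in a DMSO library.

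Among the other large rises, miR-892a, a neighbour of miR-891a on chromosome X, stood at 15.7, 16.1 and 19.5 CPM with SAHA and 0.835, 0 and 0 CPM with DMSO. Its summed counts were 149 with SAHA and 3 with DMSO, a ratio of 50.0 with an exact 95% interval of 16.8 to 245 that covers counting error only (adjusted p = 0.0009). miR-1298-5p, from an intron of the serotonin receptor gene HTR2C, stood at 15.7, 11.3 and 13.02 CPM with SAHA and 0.557, 0 and 0 CPM with DMSO (counts 114 and 2, ratio 57.4, interval 15.5 to 480, adjusted p = 0.0081). For both, groups without overlap were a condition of being named among the largest changes. DMSO 1 was the only DMSO library in which either was listed. Without DMSO 1 both are blank with DMSO, and so are miR-449a and miR-888-5p, described below, so that their folds are then lower bounds only. miR-184, known from eye and other epithelia, stood at 35.7, 46.3 and 59.3 CPM with SAHA and 1.67, 1.999 and 1.87 CPM with DMSO (log2 fold change 4.65, SE 0.61, adjusted p = 0.00035). miR-642a-3p, of chromosome 19, was named after its values were seen and stood at 25.7, 23.1 and 19.5 CPM with SAHA and 1.11, 2.67 and 1.87 CPM with DMSO (log2 fold change 3.59, SE 0.45, adjusted p = 0.00025). Both rose in every comparison that left out a library.

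The remaining members of the 10 largest rises were less firm. miR-516b-5p, of the primate placental cluster on chromosome 19, stood at 37.8, 6.43 and 72.3 CPM with SAHA and 3.06, 0 and 0.936 CPM with DMSO (log2 fold change 4.75, SE 1.20, adjusted p = 0.02). Its SAHA libraries spread widely, its log2 fold change was 3.92 without SAHA 3, 4.10 without DMSO 2 and 6.41 without DMSO 1, and the call ended without SAHA 1, SAHA 3, DMSO 2 or DMSO 3 (adjusted p from 0.053 to 0.071). miR-370-3p, of the DLK1-DIO3 region, stood at 7.63, 11.9 and 11.1 CPM with SAHA and 0, 0.666 and 0 CPM with DMSO (counts in DMSO 2 only). Its call (adjusted p = 0.038) ended without SAHA 1, SAHA 2, SAHA 3, DMSO 1, DMSO 2 or DMSO 3 (adjusted p from 0.067 to 0.13).

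Rises among microRNAs with moderate levels were smaller and had tighter libraries. miR-199b-5p, usually a marker of mesenchymal cells, stood at 309, 255 and 238 CPM with SAHA and 43.7, 28.3 and 30.4 CPM with DMSO (log2 fold change 2.96, SE 0.17, adjusted p = 9.3e-07). miR-129-5p, known to be methylated and silent in many gastric tumours, stood at 124, 111 and 128 CPM with SAHA and 21.7, 28.3 and 17.8 CPM with DMSO (log2 fold change 2.42, SE 0.54, adjusted p = 0.0087). For both, each SAHA library was above each DMSO library by a wide margin. miR-1246, whose sequence overlaps fragments of the U2 spliceosomal RNA, stood at 213, 197 and 225 CPM with SAHA and 75.5, 75.3 and 88.5 CPM with DMSO (log2 fold change 1.41, SE 0.15, adjusted p = 7.9e-05). miR-218-5p, from introns of SLIT genes and also on the list of methylated microRNAs, stood at 105, 166 and 109 CPM with SAHA and 19.8, 37.6 and 20.6 CPM with DMSO (log2 fold change 2.28, adjusted p = 0.027), a call that ended without SAHA 1, SAHA 2, DMSO 1 or DMSO 3 (adjusted p from 0.061 to 0.093).

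Further rises that held without each library were chosen for naming after their values were seen. miR-139-5p, reported as lost in several carcinomas, stood at 184, 227 and 294 CPM with SAHA and 105, 93.3 and 82.9 CPM with DMSO (log2 fold change 1.32, SE 0.26, adjusted p = 0.0036), and its passenger miR-139-3p had a log2 fold change of 2.32 (adjusted p = 0.0019). miR-146b-5p, a feedback inhibitor of NF-κB signalling, stood at 209.6, 233 and 224 CPM with SAHA and 78.2, 88.3 and 112 CPM with DMSO (log2 fold change 1.26, SE 0.19, adjusted p = 0.00067). The pancreatic microRNA miR-217 stood at 39.8, 32.1 and 38.7 CPM with SAHA and 13.9, 13.99 and 13.6 CPM with DMSO (log2 fold change 1.41, SE 0.21, adjusted p = 0.00073). None of these had overlapping groups, and the same holds for 158 of the 161 calls.

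Of the 6 most abundant calls that rose 1.5-fold or more, miR-95-3p stood at 617, 602 and 711 CPM with SAHA and 298, 310.5 and 379 CPM with DMSO (log2 fold change 0.97, SE 0.14, adjusted p = 0.00067). miR-516a-5p, of the chromosome 19 cluster, stood at 373, 316 and 316 CPM with SAHA and 181, 134 and 176 CPM with DMSO (log2 fold change 1.03, SE 0.13, adjusted p = 0.00027). miR-320b, which needs Dicer but not Drosha, stood at 269, 265 and 252 CPM with SAHA and 189.6, 155 and 161 CPM with DMSO (log2 fold change 0.64, SE 0.10, adjusted p = 0.0012). These 3 held without each AGS library. miR-500a-3p, of a chromosome X cluster, stood at 699.998, 657 and 598 CPM with SAHA and 389, 414 and 488 CPM with DMSO (log2 fold change 0.60, adjusted p = 0.0033) and its call ended without SAHA 1 (adjusted p = 0.053). miR-769-5p stood at 404, 404 and 423 CPM with SAHA and 208, 208 and 262 CPM with DMSO (log2 fold change 0.86, adjusted p = 0.011), and its call ended without SAHA 1, DMSO 1 or DMSO 2 (adjusted p from 0.053 to 0.066). The endothelial microRNA miR-126-3p was the most abundant of the 6, at 2521, 2502 and 3729.9 CPM with SAHA and 1504, 2226 and 1207 CPM with DMSO (log2 fold change 0.83, adjusted p = 0.027). SAHA 3 held its highest level and DMSO 2 the highest of the DMSO libraries, and the call ended without SAHA 1, SAHA 3, DMSO 1 or DMSO 3 (adjusted p from 0.062 to 0.096).

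**Figure D2:**
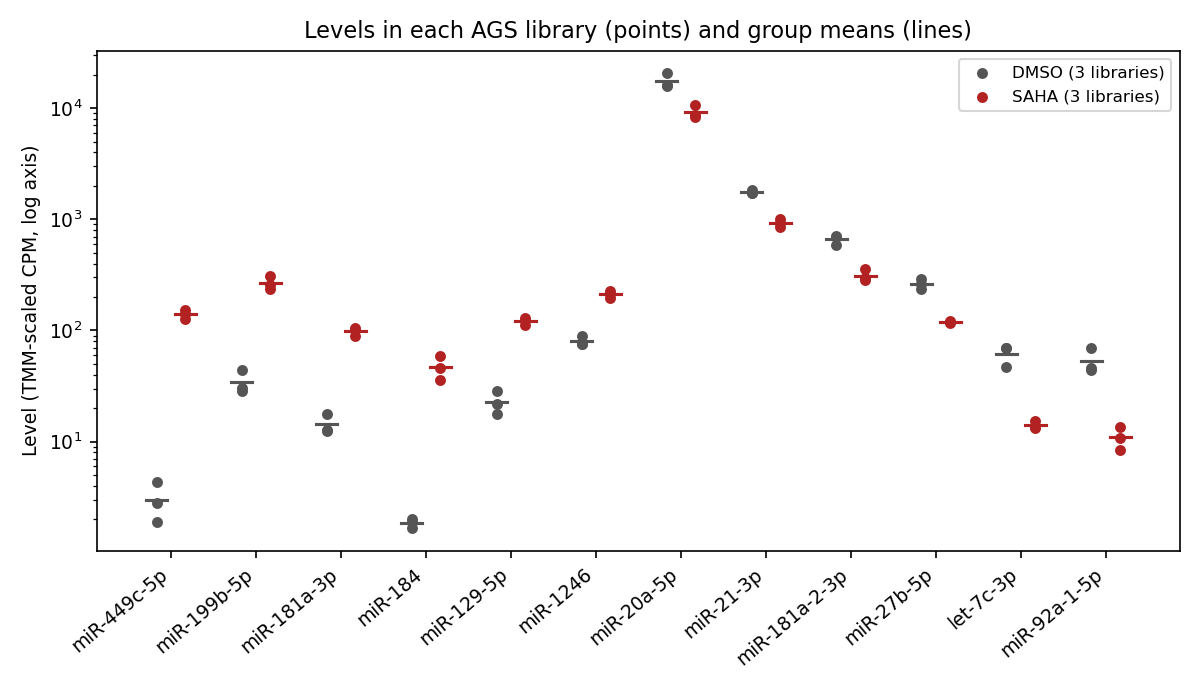
Levels in CPM (log axis) of 12 microRNAs in each AGS library. Grey points are the 3 DMSO libraries, red points the 3 SAHA libraries and short lines the group means. The groups do not overlap for any of the 12, and the same holds for 158 of the 161 calls.

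Falls reached microRNAs of very high level. miR-20a-5p, from the miR-17 to miR-92 polycistron, stood at 10710.4, 8427 and 8693 CPM with SAHA and 20581, 16049.7 and 15723 CPM with DMSO (log2 fold change -0.91, SE 0.16, adjusted p = 0.0017). miR-17-5p, its neighbour on chromosome 13 (chr13:91350605-91350688, in an exon of the host RNA MIR17HG), stood at 5729, 4798 and 4707 CPM with SAHA and 11573, 8674 and 8727 CPM with DMSO (log2 fold change -0.93, SE 0.15, adjusted p = 0.0011). All SAHA libraries were below all DMSO libraries for both. miR-30e-5p, from an intron of NFYC, stood at 1893, 1888 and 2032 CPM with SAHA and 3283, 3625 and 2762 CPM with DMSO (log2 fold change -0.73, SE 0.12, adjusted p = 0.0014). miR-4521, of chromosome 17, stood at 1032, 1141 and 1161 CPM with SAHA and 2109, 1604 and 2941 CPM with DMSO (log2 fold change -0.997, SE 0.22, adjusted p = 0.0075). The passenger strand miR-21-3p, from the hairpin of the oncogenic miR-21, stood at 1001, 927 and 862 CPM with SAHA and 1739.6, 1819.9 and 1711 CPM with DMSO (log2 fold change -0.92, SE 0.09, adjusted p = 7.9e-05). miR-335-3p, from an intron of the imprinted gene MEST, stood at 782, 748 and 758 CPM with SAHA and 1382, 1261 and 1503 CPM with DMSO (log2 fold change -0.86, SE 0.09, adjusted p = 7.9e-05). These 6 held under each setting tried, plain totals included. miR-193b-3p stood at 845, 924 and 989 CPM with SAHA and 2083, 1217 and 1177 CPM with DMSO (log2 fold change -0.70, adjusted p = 0.019), with a call that ended without SAHA 2 (adjusted p = 0.051), and with plain totals (0.098).

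The most abundant microRNA of AGS, miR-21-5p, stood at 334832, 279936 and 348340.00000 CPM with SAHA and 400640.00000, 402522 and 399218 CPM with DMSO (log2 fold change -0.32, SE 0.10, adjusted p = 0.043). Its groups did not overlap, but the fall was small and the call ended without SAHA 2, DMSO 1 or DMSO 3 (adjusted p from 0.093 to 0.16), and with plain totals (0.11). let-7i-5p stood at 39361, 36675 and 40302 CPM with SAHA and 45366, 54132 and 55364 CPM with DMSO (log2 fold change -0.41, adjusted p = 0.011), and its call ended without SAHA 2 or DMSO 3 (adjusted p from 0.055 to 0.061). miR-7-5p stood at 16438, 15353 and 17128 CPM with SAHA and 22354, 17849 and 25101 CPM with DMSO (log2 fold change -0.42, adjusted p = 0.047), and its call ended without SAHA 1, SAHA 2, SAHA 3, DMSO 1 or DMSO 3 (adjusted p from 0.054 to 0.2), and with plain totals (0.2). Of the other 7 of the 10 most abundant, none was called. They included miR-100-5p at 70466, 57999 and 53409.6 CPM with SAHA and 53767, 56679.7 and 69702 CPM with DMSO (adjusted p = 0.95) and miR-148a-3p at 26846, 24420.1 and 53223 CPM with SAHA and 17057, 47339 and 18226 CPM with DMSO (adjusted p = 0.57). For miR-148a-3p, SAHA 3 and DMSO 2 were both about as high as each other and above the rest of their groups.

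The largest falls were mostly in passenger strands. miR-181b-2-3p stood at 2.01, 2.57 and 0.977 CPM with SAHA and 20.3, 18.99 and 22.5 CPM with DMSO (log2 fold change -3.45, SE 0.43, adjusted p = 0.00027). miR-92a-1-5p, the passenger of miR-92a from the chromosome 13 cluster, stood at 10.8, 13.5 and 8.47 CPM with SAHA and 45.7, 43.97 and 70.2 CPM with DMSO (log2 fold change -2.28, SE 0.28, adjusted p = 0.00025). let-7c-3p stood at 15.3, 13.5 and 13.3 CPM with SAHA and 47.3, 68.96 and 69.3 CPM with DMSO (log2 fold change -2.14, SE 0.21, adjusted p = 7.2e-05). Their groups did not overlap, which was a condition of being named among the largest changes. From the same chromosome 13 cluster, miR-19b-1-5p stood at 4.42, 4.18 and 7.16 CPM with SAHA and 23.1, 17.7 and 23.4 CPM with DMSO (log2 fold change -2.01, adjusted p = 0.00067) and miR-20a-3p at 4.82, 6.11 and 6.19 CPM with SAHA and 21.999, 13.7 and 13.1 CPM with DMSO (log2 fold change -1.51, adjusted p = 0.0022). miR-152-5p, from an intron of COPZ2, stood at 8.43, 9.32 and 11.7 CPM with SAHA and 26.7, 44.97 and 38.4 CPM with DMSO (log2 fold change -1.89, adjusted p = 0.00036). miR-1296-5p, from an intron of the histone demethylase relative JMJD1C, stood at 92.4, 79.7 and 61.5 CPM with SAHA and 175, 154 and 213 CPM with DMSO (log2 fold change -1.21, adjusted p = 0.00067). miR-4454, an entry that overlaps a tRNA fragment, stood at 32.9, 45.97 and 63.5 CPM with SAHA and 196, 140.2 and 162 CPM with DMSO (log2 fold change -1.81, adjusted p = 0.00025). These 8 held under each setting tried. The other members of the 10 largest falls were miR-195-3p at 4.02, 3.54 and 8.47 CPM with SAHA and 15.3, 16.7 and 9.83 CPM with DMSO (log2 fold change -1.38, adjusted p = 0.038), whose call ended without SAHA 1, SAHA 2, DMSO 1 or DMSO 2 (adjusted p from 0.077 to 0.13), and miR-550a-5p at 6.43, 4.18 and 6.84 CPM with SAHA and 15.6, 11.3 and 12.6 CPM with DMSO (log2 fold change -1.18, adjusted p = 0.013), whose call ended without SAHA 2 or DMSO 1 (adjusted p from 0.059 to 0.066).

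The miR-17 to miR-92 cluster with its paralogs, whose members promote the cell cycle and are driven by MYC and E2F, held many of the falls. Of 21 tested members 13 were called lower and 1 higher, with a median log2 fold change of -0.71, against 11.5% lower, 15% higher and a median of 0.08 among all 608. Beside those already given, miR-18a-5p stood at 125, 114 and 118 CPM with SAHA and 354, 226 and 211 CPM with DMSO (log2 fold change -1.15, SE 0.21, adjusted p = 0.0027) and miR-19a-3p at 199.999, 198 and 225 CPM with SAHA and 490.1, 328 and 397 CPM with DMSO (log2 fold change -0.96, SE 0.16, adjusted p = 0.0013). The other 7 were not called, among them miR-25-3p (-0.03, adjusted p = 0.84), miR-106b-3p (-0.05, adjusted p = 0.72) and miR-18b-5p (0.22, adjusted p = 0.77). Some called members changed little: miR-92a-3p stood at 9989.5, 10458 and 8343 CPM with SAHA and 11432, 11008 and 14944 CPM with DMSO (log2 fold change -0.38, adjusted p = 0.043), a call that ended without SAHA 1, SAHA 2, SAHA 3, DMSO 1 or DMSO 3 (adjusted p from 0.053 to 0.22), and with plain totals (0.38). miR-93-5p of the chromosome 7 cluster, hosted by the replication gene MCM7, stood at 4457, 3952 and 3506 CPM with SAHA and 5301, 4816 and 5301 CPM with DMSO (log2 fold change -0.37, adjusted p = 0.02), and its call ended without SAHA 2, SAHA 3, DMSO 1 or DMSO 3 (adjusted p from 0.07 to 0.085), and with plain totals (0.29). The 1 that was higher, miR-363-3p of the chromosome X cluster, was scarce, at 6.43, 4.82 and 5.86 CPM with SAHA and 1.11, 0.999 and 0 CPM with DMSO (log2 fold change 2.83, adjusted p = 0.043), and its call ended without SAHA 1, SAHA 2, SAHA 3, DMSO 1, DMSO 2 or DMSO 3 (adjusted p from 0.078 to 0.13). Its neighbours miR-106a-5p and miR-20b-5p went the other way, by -0.86 and -0.84 on the log2 scale (adjusted p = 0.0099 and 0.019); the miR-106a-5p call ended with plain totals (0.054), and the miR-20b-5p call ended without SAHA 2, SAHA 3 or DMSO 1 (adjusted p from 0.052 to 0.085), and with plain totals (0.072). With plain totals 7 members of the list were lower and 1 higher, with a median of -0.52, and without a single library 9 to 14 were lower.

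In the let-7 family, whose targets include growth-promoting genes, most of the calls were passenger strands. Of 20 tested members 7 were called lower and 0 higher (median -0.32), and 5 of the 7 were 3p strands. The 3p strands were also the larger part of the 20 tested, and a difference between the strands was not tested. The share called was 35%, against 26.5% among all 608, of which 11.5% were lower and 15% higher (median 0.08). Beside let-7c-3p, let-7e-3p stood at 26.1, 23.1 and 20.5 CPM with SAHA and 49.6, 50.6 and 53.8 CPM with DMSO (log2 fold change -1.14, SE 0.15, adjusted p = 0.00036), let-7b-3p at 70.7, 91.6 and 84.3 CPM with SAHA and 143, 143 and 174 CPM with DMSO (log2 fold change -0.90, SE 0.13, adjusted p = 0.00056) and let-7f-1-3p at 76.3, 89.4 and 95.1 CPM with SAHA and 136, 142 and 134 CPM with DMSO (log2 fold change -0.66, adjusted p = 0.0016). None of these overlapped, which held for 38.7% of all 608 and for 158 of the 161 calls. let-7a-3p, at 279.5, 280.02 and 334 CPM with SAHA and 331, 449.7 and 414 CPM with DMSO (log2 fold change -0.42, adjusted p = 0.032), lost its call without SAHA 1, SAHA 2 or DMSO 3 (adjusted p from 0.054 to 0.1), and with plain totals (0.21). Among the 5p guides, let-7e-5p stood at 1263, 1314 and 1278 CPM with SAHA and 1705, 1633 and 1994 CPM with DMSO (log2 fold change -0.47, adjusted p = 0.0033), a call that ended with plain totals (0.067). The guides let-7b-5p (5663, 6276 and 5025 CPM with SAHA and 6667, 6373 and 8043 CPM with DMSO, adjusted p = 0.069) and let-7f-5p (26897, 25695 and 30202 CPM with SAHA and 26801, 26492 and 27159 CPM with DMSO, adjusted p = 0.75) were not called. The let-7b-5p fall was called without DMSO 2 (-0.47, adjusted p = 0.028). The counts of the family were 5 lower and 1 higher with plain totals and 13 lower with the predicted entries in the fit.

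The miR-34 and miR-449 family slows the cell cycle and shares its seed, up to a shift of 1 base. Its 3 tested miR-449 members, hosted by an intron of the cell division gene CDC20B on chromosome 5, rose, and miR-34a-5p, a p53 target, fell. miR-449c-5p (chr5:55172262-55172353) stood at 142, 126 and 154 CPM with SAHA and 2.78, 4.33 and 1.87 CPM with DMSO (log2 fold change 5.51, SE 0.24, adjusted p = 8.8e-08). miR-449a (chr5:55170532-55170622) stood at 15.7, 12.9 and 10.7 CPM with SAHA and 0.557, 0 and 0 CPM with DMSO, with summed counts of 112 and 2 and a ratio of 56.4 (interval 15.2 to 471, adjusted p = 7.9e-05). miR-449b-5p was blank with DMSO and stood at 0.803, 4.18 and 3.26 CPM with SAHA (adjusted p = 0.0033), at least 2.54-fold higher, but it was too scarce to pass the filter in a fit of AGS alone. miR-34a-5p stood at 169.9, 190.001 and 158 CPM with SAHA and 298, 269 and 294 CPM with DMSO (log2 fold change -0.73, SE 0.12, adjusted p = 0.0011). With 6 members tested, 3 were higher and 1 lower, or 66.7% called against 26.5% among all 608. Of these, miR-449a and miR-449b-5p were blank or nearly so with DMSO in AGS and passed the filter only through other groups. The median was 3.28, or 1.20 with miR-449b-5p set at its bound. The summed level of the family went from 308, 285 and 301 CPM with DMSO to 335, 353 and 332 CPM with SAHA, groups that did not overlap on a scale that depends on the TMM factors, while the miR-449 members went from 1.08%, 1.52% and 0.621% of that sum to 47.3%, 41.3% and 50.9%. The share does not depend on the scaling of the libraries, and it was chosen after the values were seen.

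The miR-181 family changed by locus. From chromosome 1, in an intron of MIR181A1HG, miR-181a-3p (chr1:198859044-198859153) stood at 104, 101 and 88.2 CPM with SAHA and 12.5, 17.7 and 12.6 CPM with DMSO (log2 fold change 2.77, SE 0.21, adjusted p = 1.1e-05) and miR-181b-3p at 3.61, 5.14 and 7.81 CPM with SAHA and 0.557, 0 and 0.936 CPM with DMSO (log2 fold change 3.48, SE 0.71, adjusted p = 0.0081, or 2.79 without DMSO 2 and 4.07 without DMSO 3). The miR-181b-3p call ended in a fit with the replicate number as a block (adjusted p = 0.062). From chromosome 9, in an intron of MIR181A2HG, miR-181a-2-3p (chr9:124692442-124692551) stood at 295, 284 and 356 CPM with SAHA and 701, 589 and 715 CPM with DMSO (log2 fold change -1.10, SE 0.13, adjusted p = 0.00021), and miR-181b-2-3p fell as given above. The first pair rose and the second fell. None of the 4 overlapped, which held for 38.7% of all 608 and for 158 of the 161 calls. Within a library the log2 ratio of miR-181a-3p to miR-181a-2-3p was -1.50, -1.49 and -2.01 with SAHA and -5.79, -5.05 and -5.80 with DMSO, a ratio that needs no scaling and was chosen after the values were seen. The guides made from both loci were not called: miR-181a-5p stood at 1535, 1653 and 1601 CPM with SAHA and 1608, 1797 and 1343 CPM with DMSO (adjusted p = 0.95) and miR-181b-5p at 1104, 1159.9 and 979 CPM with SAHA and 1339, 1159.9 and 1494 CPM with DMSO (adjusted p = 0.052). The miR-181b-5p fall was called without DMSO 2 (-0.48, adjusted p = 0.0082) and in DESeq2 (0.012). The whole list had 2 of 9 tested members higher and 3 lower, or 55.6% called against 26.5% among all 608. The third fall was miR-181c-3p of chromosome 19 (-0.46, adjusted p = 0.011), a call that ended without SAHA 2 (adjusted p = 0.052), and with plain totals (0.13). The median of the list, -0.14, became 0.06 with plain totals.

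**Figure D3:**
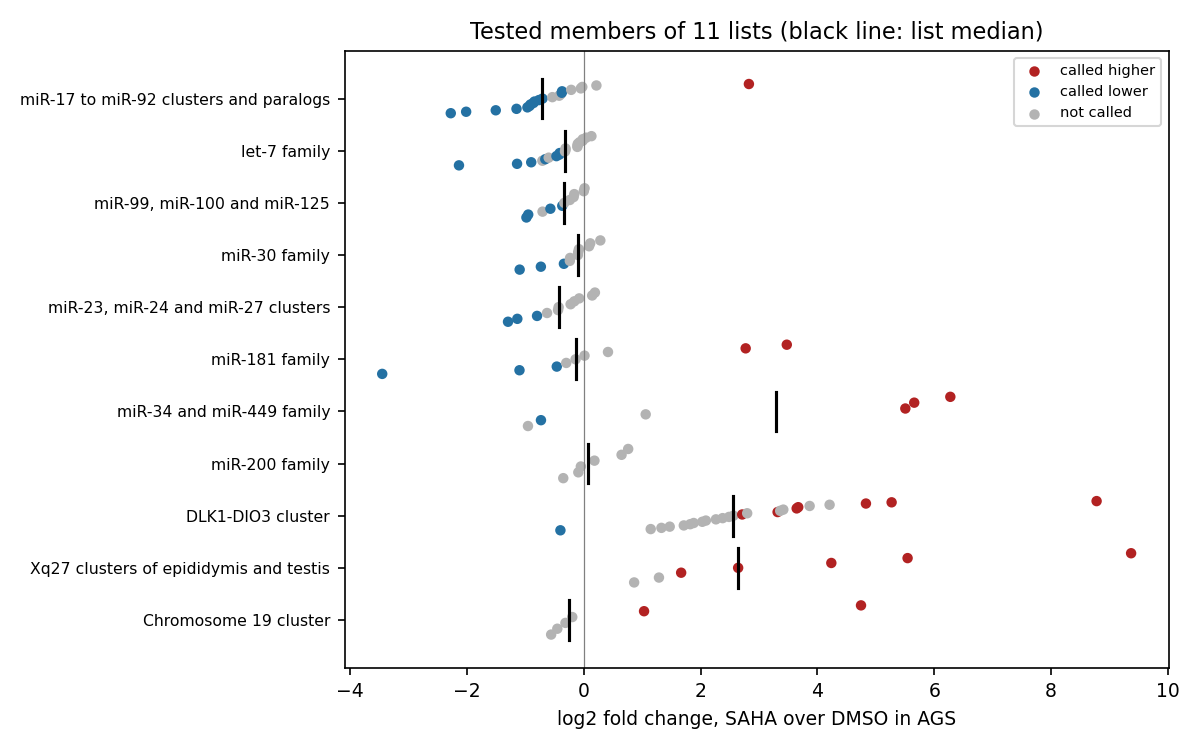
Log2 fold change of SAHA over DMSO in AGS for each tested member of 11 lists, one row per list. Red points were called higher, blue points lower and grey points not called, and black lines mark list medians. The miR-17 to miR-92 members lie mostly below 0, those of the chromosome 14 and chromosome X clusters mostly above 0, and the miR-181 members on both sides.

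Several rises lay in clusters that are normally active in germ line, placenta or embryo. Their counts are read against 15% higher, 11.5% lower and a median of 0.08 among all 608. Of 23 members in the table of the Xq27 clusters, known from epididymis and testis, 7 were tested, with 5 called higher and 0 lower (median 2.64). The summed level of the clusters was 140 to 248 CPM with SAHA and 30.4 to 69.0 CPM with DMSO. miR-891a-5p, miR-892a and miR-888-5p were blank or nearly so with DMSO in AGS and passed the filter only through other groups. The count and the median are thus in part set by the filter. Beside miR-891a-5p and miR-892a, miR-888-5p stood at 6.43, 7.39 and 6.84 CPM with SAHA and 0.835, 0 and 0 CPM with DMSO (counts 60 and 3, ratio 20.1, interval 6.57 to 100.4, adjusted p = 0.0035). miR-508-3p stood at 12.9, 8.68 and 14.001 CPM with SAHA and 1.67, 1.67 and 2.34 CPM with DMSO (log2 fold change 2.64, adjusted p = 0.0081), a call that ended without DMSO 1 (adjusted p = 0.06). miR-509-3-5p stood at 52.2, 37.3 and 72.6 CPM with SAHA and 13.9, 25.7 and 11.2 CPM with DMSO (log2 fold change 1.67, adjusted p = 0.026), a call that ended without SAHA 1, SAHA 3, DMSO 1 or DMSO 3 (adjusted p from 0.081 to 0.11). Leaving out a single library gave 3 to 6 higher members.

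The DLK1-DIO3 cluster, a large imprinted group on chromosome 14 that is expressed in embryo and brain, had 7 of 25 tested members higher and 1 lower, with a median of 2.56. The share called, 32%, was not far from the 26.5% among all 608. Most members were scarce and variable, and 60 of the 85 members in the table were not tested. Members blank with DMSO in AGS, such as miR-654-3p, passed the filter only through other groups, so the count and median are in part set by the filter. miR-494-3p stood at 8.43, 11.9 and 8.79 CPM with SAHA and 1.11, 0 and 1.87 CPM with DMSO (log2 fold change 3.32, SE 0.66, adjusted p = 0.004) and, with miR-654-3p, held without each library, with a miR-494-3p value of 2.62 without DMSO 2 and 3.97 without DMSO 3. The other calls of the cluster depended on single libraries. miR-409-3p stood at 4.42, 8.36 and 5.21 CPM with SAHA and 0.557, 0.666 and 0 CPM with DMSO and its call ended without SAHA 1, SAHA 2, DMSO 1, DMSO 2 or DMSO 3 (adjusted p from 0.053 to 0.08). miR-889-3p stood at 6.43, 3.86 and 4.23 CPM with SAHA and 0, 0.999 and 0 CPM with DMSO and its call ended without SAHA 1, DMSO 1 or DMSO 3 (adjusted p from 0.063 to 0.083), while without DMSO 2, the only DMSO library in which it was listed, the fold is a lower bound. miR-134-5p stood at 4.42, 16.4 and 2.605 CPM with SAHA and 0, 0 and 0.936 CPM with DMSO, with SAHA 2 far above its replicates, and its call ended without SAHA 1, SAHA 2, DMSO 1, DMSO 2 or DMSO 3 (adjusted p from 0.056 to 0.16). miR-758-3p stood at 5.22, 6.75 and 1.63 CPM with SAHA and 1.11, 0.666 and 0 CPM with DMSO and its call ended without SAHA 1, SAHA 2, DMSO 1, DMSO 2 or DMSO 3 (adjusted p from 0.087 to 0.16). The 1 lower member, miR-345-5p (464, 450.4 and 557 CPM with SAHA and 642, 748 and 551 CPM with DMSO, log2 fold change -0.40, adjusted p = 0.043), lies at chr14:100307859-100307956, apart from the others, and lost its call without SAHA 1, SAHA 2 or DMSO 1 (adjusted p from 0.053 to 0.13), and with plain totals (0.24). By its position miR-345 may lie outside the cluster, although the list counts it. With a single library left out, 2 members were higher without DMSO 1, DMSO 3 or SAHA 1, 3 without DMSO 2 or SAHA 2, and 6 without SAHA 3, and in a fit of AGS alone 11 were higher. In the chromosome 19 cluster 2 of 6 tested members were higher (miR-516a-5p and miR-516b-5p) and 0 lower, or 33.3% called, with a median of -0.26. Among the embryonic stem cell clusters a single member was tested, miR-372-3p, at 3.21, 2.57 and 5.54 CPM with SAHA and 0, 0.666 and 0.936 CPM with DMSO (log2 fold change 2.89, adjusted p = 0.024), and its call ended without SAHA 1, SAHA 3, DMSO 1 or DMSO 2 (adjusted p from 0.064 to 0.082).

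Markers of other cell types moved in part, and their counts are read against the 26.5% called among all 608. Of 8 fibroblast and smooth muscle entries 3 were higher and 0 lower: miR-199b-5p, as well as the pair miR-199a-3p/miR-199b-3p, which have the same mature sequence and the same counts and count as 1 measurement (59.8, 62.7 and 60.6 CPM with SAHA and 17.5, 23.99 and 18.3 CPM with DMSO, log2 fold change 1.61, adjusted p = 0.027). That call ended without SAHA 1, SAHA 2, SAHA 3, DMSO 1, DMSO 2 or DMSO 3 (adjusted p from 0.051 to 0.091). The defining marker miR-143-3p was not called (adjusted p = 0.83) and miR-214-3p was at or near 0 in every library. Both endothelial entries were higher, miR-126-3p and miR-126-5p, and the miR-126-5p call (adjusted p = 0.041) ended without SAHA 1, SAHA 2, DMSO 2 or DMSO 3 (adjusted p from 0.089 to 0.23). Of 7 blood entries 0 were called. Of 11 muscle, liver and neuron entries 1 was higher, miR-499a-5p, at 33.3, 39.2 and 25.4 CPM with SAHA and 10.3, 14.99 and 2.34 CPM with DMSO (log2 fold change 1.80, adjusted p = 0.025), and its call ended without SAHA 1, SAHA 2 or DMSO 1 (adjusted p from 0.075 to 0.079). Whether other cells or RNA contributed to these levels was not tested. Among 5 endocrine entries miR-184 and miR-483-3p were higher, and miR-7-5p and miR-7-1-3p lower. miR-375, also a gut epithelium marker, was not called (log2 fold change 1.87, adjusted p = 0.35). It stood at 63.5, 49.8 and 66.8 CPM with SAHA and 0.835, 44.3 and 3.74 CPM with DMSO, with DMSO 2 far above its replicates. Its log2 fold change ran from 1.27 to 4.73 over the alternatives. The miR-7-1-3p call (adjusted p = 0.022) ended without SAHA 2 or DMSO 1 (adjusted p from 0.053 to 0.091), and with plain totals (0.18).

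Few microRNAs of epithelial identity were called. Of the 6 tested members of the miR-200 family, which maintains the epithelial state, 0 were called, and without DMSO 2 a single one was higher. Of the gut list of miR-192, miR-194 and miR-215, with 4 tested, miR-194-3p was higher, at 14.9, 17.7 and 8.14 CPM with SAHA and 3.899, 4.997 and 5.62 CPM with DMSO (log2 fold change 1.49, adjusted p = 0.011). This call ended without SAHA 1, SAHA 2 or DMSO 1 (adjusted p from 0.054 to 0.066), and without DMSO 2 miR-192-5p was higher as well (log2 fold change 0.90, adjusted p = 0.008). Of the 25 tested microRNAs reported as silenced by methylation in gastric cancer, 2 were higher (miR-129-5p and miR-218-5p) and 3 lower (miR-181c-3p, miR-195-3p and miR-335-3p), a share of 20% against 26.5% among all. In the miR-183 cluster 2 of 5 were higher, miR-182-5p (0.43, adjusted p = 0.047) and miR-183-5p (0.38, adjusted p = 0.012). The miR-182-5p call ended without SAHA 1, SAHA 2, SAHA 3, DMSO 1 or DMSO 2 (adjusted p from 0.12 to 0.3). The miR-183-5p call ended without SAHA 1, SAHA 2, SAHA 3, DMSO 1 or DMSO 2 (adjusted p from 0.063 to 0.14).

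The remaining lists are read against the 26.5% called among all 608, and in most of them the calls were lower. In the miR-30 family 3 of 11 were lower and 0 higher: miR-30e-5p, given above, miR-30e-3p (log2 fold change -0.34, adjusted p = 0.01) and miR-30c-1-3p at 15.7, 16.1 and 14.001 CPM with SAHA and 40.9, 24.7 and 32.3 CPM with DMSO (log2 fold change -1.10, adjusted p = 0.0027). Among miR-99, miR-100 and miR-125 strands, of which 3p strands were the larger part, 4 of 11 were lower, all 3p passengers, and 0 higher. These were miR-125b-2-3p (log2 fold change -0.57, adjusted p = 0.0052), miR-99b-3p (log2 fold change -0.37, adjusted p = 0.022), miR-125a-3p at 24.5, 28.9 and 29.3 CPM with SAHA and 59.3, 52.97 and 47.7 CPM with DMSO (log2 fold change -0.95, adjusted p = 0.00056) and miR-99a-3p at 12.9, 11.9 and 10.7 CPM with SAHA and 24.8, 23.3 and 22.002 CPM with DMSO (log2 fold change -0.98, adjusted p = 0.0035). Lower counts with 0 higher were 3 of 11 for the clusters of miR-23, miR-24 or miR-27 (miR-23a-5p, miR-27a-5p and miR-27b-5p), 3 of 8 for the HOX cluster microRNAs (miR-10a-3p, miR-196a-3p and miR-196b-5p) and 2 of 8 for the miR-193 and miR-365 clusters (miR-193b-3p and miR-365a-5p). They were 1 of 8 for the miR-130, miR-301 and miR-454 family (miR-301a-3p), 1 of 12 for miR-15, miR-16 and relatives (miR-195-3p) and 1 of 5 for the miR-26 family (miR-26a-1-3p). From the HOX loci, miR-196b-5p stood at 229, 226 and 187 CPM with SAHA and 347, 305 and 397 CPM with DMSO (log2 fold change -0.71, adjusted p = 0.0025). From chromosome 16, miR-365a-5p stood at 114, 105 and 142 CPM with SAHA and 244, 224 and 225 CPM with DMSO (log2 fold change -0.94, adjusted p = 0.00067). In the miR-148 and miR-152 family, 1 of 6 was higher (miR-148a-5p) and 2 were lower (miR-152-3p and miR-152-5p). The miR-29 family (7 tested) and miR-221 and miR-222 (4 tested) had 0 calls. Of 10 entries made without Drosha 2 were higher, miR-320b and the scarce miR-1224-5p, which was blank with DMSO. Of 10 entries that overlap other small RNAs 3 were higher (miR-1246, miR-1260a and miR-1260b) and 1 lower (miR-4454). Without SAHA 2 the calls of miR-30e-3p, miR-99b-3p, miR-23a-5p, miR-10a-3p, miR-196a-3p, miR-301a-3p, miR-152-3p, miR-1260a and miR-1260b ended (adjusted p from 0.05 to 0.16), and without SAHA 1 those of miR-26a-1-3p and miR-148a-5p (0.12 and 0.05). Each of these but miR-30e-3p also lost its call without at least 1 DMSO library (adjusted p from 0.052 to 0.19). The lower calls rest in part on the scaling. With plain totals those of miR-30e-3p, miR-99b-3p, miR-23a-5p, miR-10a-3p, miR-301a-3p, miR-152-3p and miR-26a-1-3p ended, and so did that of miR-125b-2-3p (adjusted p = 0.065). The medians of the miR-30 family (-0.10) and of the miR-15 and miR-16 family (-0.11) became 0.09 with plain totals.

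When counts were summed by seed, 124 of 449 seed families were called (27.6%), 59 higher (13.1%) and 65 lower (14.5%). The family with the seed AAAGUGC, 7 members led by miR-20a-5p and miR-17-5p, stood at 22298, 18239 and 17569.6 CPM with SAHA and 43345, 34345 and 32357 CPM with DMSO (log2 fold change -0.92, SE 0.13, adjusted p = 0.00049). It was among the most abundant seeds of the line, and its groups did not overlap. The seed AAGGUGC of miR-18a-5p and miR-18b-5p fell by 1.24 on the log2 scale (adjusted p = 0.0018). Of the seeds that rose, AGGCAGU, with miR-449c-5p and miR-2682-5p, stood at 145, 128 and 152 CPM with SAHA and 3.07, 4.84 and 1.97 CPM with DMSO (log2 fold change 5.39, SE 0.24, adjusted p = 1.3e-07), and miR-449c-5p made up 99.7% of it. The seed GGCAGUG of miR-34a-5p, miR-449a and miR-449b-5p instead fell, from 330, 301 and 309 CPM with DMSO to 191, 209 and 170 CPM with SAHA (log2 fold change -0.72, SE 0.11, adjusted p = 0.00091), and miR-34a-5p made up 96.6% of its counts. The other named families each had 1 member: miR-129-5p, miR-218-5p, miR-1246 and miR-139-5p for the rises, and miR-4454, miR-27b-5p, miR-181a-2-3p and miR-338-5p for the falls. Seeds could be assigned to 95.6% to 96.3% of annotated counts in AGS libraries. The TMM scaling of the seed table lay lower than that of the single microRNAs, and with the latter 74 families were higher and 45 lower.

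The balance between the arms of a hairpin was called changed in few cases. Of 138 hairpins with both arms tested and a single locus, the ratio of the 5p to the 3p arm was called changed in 9 (6.52%) with limma. Both arms were called in 16 hairpins, 8 with both higher, 6 with both lower and 2 in opposite directions, and a single arm in 46. The hairpin mir-1296 was the extreme: its log2 ratio was 3.42, 2.85 and 2.84 with SAHA and 7.12, 9.86 and 9.83 with DMSO (change -5.90, SE 0.63, adjusted p = 0.00021), with miR-1296-3p at 8.43, 10.9 and 8.47 CPM with SAHA and 1.11, 0 and 0 CPM with DMSO (log2 fold change 4.30, adjusted p = 0.0014) and miR-1296-5p lower. Since its 3p arm was blank in DMSO 2 and DMSO 3, the size of this change depends on the offset of 0.5 counts, and it was -6.81 without DMSO 1. The second with opposite arms was mir-338, with a log2 ratio of 2.13, 1.88 and 1.92 with SAHA and 3.52, 3.23 and 3.58 with DMSO (change -1.47, SE 0.16, adjusted p = 0.00021), miR-338-5p lower (-0.9999) and miR-338-3p higher (log2 fold change 0.47, adjusted p = 0.04). The miR-338-3p call ended without each of the 6 AGS libraries (adjusted p from 0.052 to 0.19) and was kept in 1 of 13 alternatives, so that the opposite direction of its arms is uncertain. In the other 7 the passenger strand lost ground to the guide. The log2 ratio of let-7c was 6.85, 7.17 and 6.86 with SAHA and 5.49, 4.85 and 5.15 with DMSO (change 1.79, SE 0.24, adjusted p = 0.00099), and let-7b and let-7e moved the same way, by 0.59 and 0.68 (adjusted p = 0.042 for both), calls that ended without most of the AGS libraries. The ratio of mir-27b was -8.42, -8.27 and -8.19 with SAHA and -7.37, -7.32 and -7.28 with DMSO (change -0.97, SE 0.15, adjusted p = 0.0015), and that of mir-27a, its paralog on chromosome 19, was -3.97, -4.05 and -3.88 with SAHA and -3.11, -2.94 and -2.88 with DMSO (change -0.99, SE 0.15, adjusted p = 0.0015). For these hairpins the 5p passengers fell, with miR-27b-5p at 119, 121 and 117 CPM with SAHA and 235, 261 and 289 CPM with DMSO and miR-27a-5p at 581, 533 and 656 CPM with SAHA and 882, 1127 and 1072 CPM with DMSO, while the guides miR-27b-3p and miR-27a-3p were not called (adjusted p = 0.21 and 0.23). Without SAHA 1 the guide miR-27b-3p was lower (-0.34, adjusted p = 0.041). The hairpins mir-152 and mir-23a changed by -1.34 (adjusted p = 0.0068) and -1.42 (adjusted p = 0.01). Arm ratios within a library do not depend on how libraries are scaled.

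**Figure D4:**
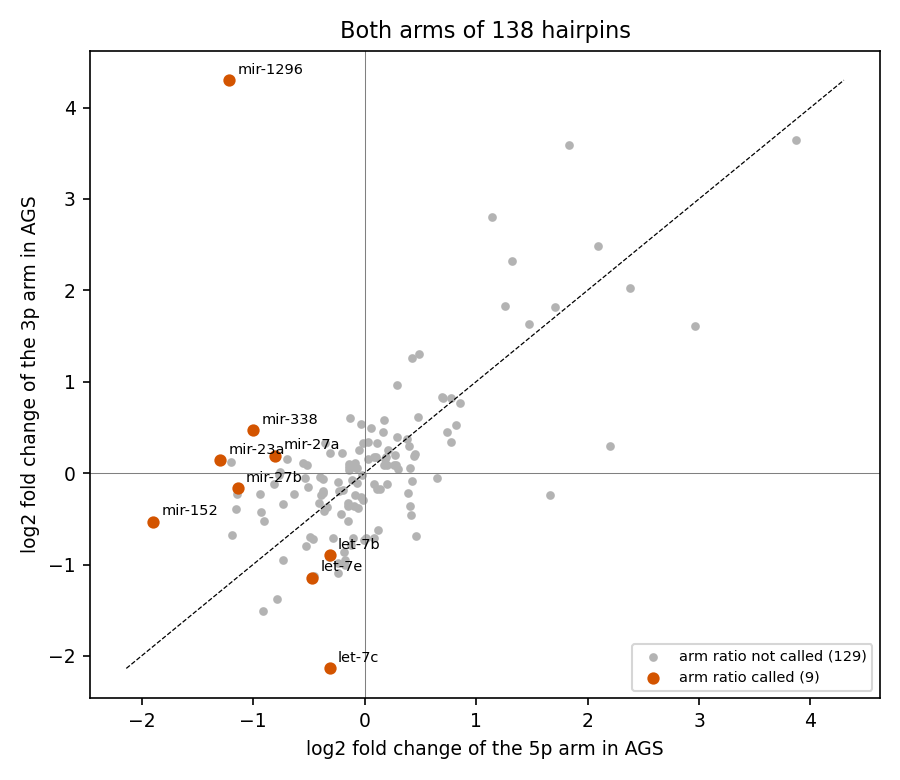
Log2 fold change in AGS of the 3p arm (vertical axis) against that of the 5p arm (horizontal axis) for 138 hairpins, with the line of equal change dashed. Orange points are the 9 hairpins whose arm ratio was called changed. mir-1296 lies far above the line, and let-7c, let-7b and let-7e lie below it.

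Calls by genome position are given as counts without a test, with 1 hairpin standing for each name, beside 15% higher and 11.5% lower among all 608. On chromosome 10, 7 of 22 tested were higher and 2 lower. Chromosome 14 had 10 of 37 higher and 1 lower, and on chromosome X 18 of 72 were higher and 5 lower. On chromosome 13, which holds the miR-17 to miR-92 cluster, 0 of 18 were higher and 8 lower. On chromosome 8 none of 21 was called. Of 131 microRNAs between annotated genes 34 were higher and 6 lower, whereas of 69 in exons of non-coding genes 3 were higher and 18 lower. Strands from the same host RNA are counted separately here. The 18 include miR-17-5p, miR-18a-5p, miR-19a-3p and miR-20a-5p of MIR17HG, and miR-106a-5p and miR-20b-5p of a host on chromosome X. They are thus in part the falls of the miR-17 to miR-92 clusters given above. In introns of protein-coding genes 39 of 270 were higher and 28 lower, close to the shares among all tested.

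Most microRNAs called in both lines changed in the same direction. In HGC-27 248 of 608 were called (40.8%), and 119 were called in both lines, 73.9% of the AGS calls and 48.0% of the HGC-27 calls. Of these 119, 117 went the same way, and miR-7-5p and miR-195-3p went opposite ways. The AGS falls of miR-7-5p and miR-195-3p were kept in only 4 and 7 of the 13 alternatives, so their opposite directions are uncertain. The difference between the responses was called for 11 microRNAs (1.81%), 6 with the higher log2 fold change in AGS and 5 with the lower. miR-516a-5p rose in AGS, as given above, whereas in HGC-27 it went from 81.1 ± 4.896 to 78.9 ± 4.79 CPM (mean ± SD, n = 3, difference 1.07, SE 0.18, adjusted p = 0.011). miR-676-3p, from an intron of EDA on chromosome X, stood at 14.5, 18.6 and 9.44 CPM with SAHA and 1.11, 0.999 and 1.87 CPM with DMSO in AGS, and in HGC-27 it went from 13.7 ± 1.25 to 40.9 ± 3.45 CPM (difference 1.85, SE 0.41, adjusted p = 0.047). It rose in both lines, and the difference was not called without SAHA 1, SAHA 2, DMSO 1 or DMSO 2 of AGS (adjusted p from 0.13 to 0.18). The miR-516a-5p difference was not called without SAHA 1 (0.13) or SAHA 2 (0.067) of AGS. In the other direction, miR-7-5p in HGC-27 went from 17684 ± 2826 to 51267 ± 2888 CPM (difference -1.95, SE 0.20, adjusted p = 0.00058). miR-19a-3p fell in AGS and in HGC-27 went from 427 ± 60.6 to 478 ± 50.3 CPM (difference -1.13, SE 0.22, adjusted p = 0.026), a difference not called without SAHA 2 of AGS (0.076), and miR-27a-5p fell in AGS and in HGC-27 went from 891 ± 37.2 to 1095 ± 149 CPM (difference -1.10, SE 0.18, adjusted p = 0.01). miR-216b-5p was already listed in each AGS DMSO library, at 14.5, 12.9 and 16.9 CPM with SAHA and 9.19, 13.7 and 4.68 CPM with DMSO (adjusted p = 0.27), and in HGC-27 was blank with DMSO and at 3.91 ± 1.21 CPM with SAHA (difference -6.10, adjusted p = 0.01). The size of that difference depends on the prior count of the fit, since HGC-27 held none with DMSO. miR-195-3p stood in HGC-27 at 1.01 ± 0.665 CPM with DMSO and 6.78 ± 1.04 CPM with SAHA (difference -4.11, SE 0.65, adjusted p = 0.01). Of the rest, miR-1247-3p, miR-1247-5p, miR-30a-3p and miR-135b-3p were called lower in HGC-27 and not called in AGS. A difference that missed the threshold does not show that both lines respond alike.

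**Figure D5:**
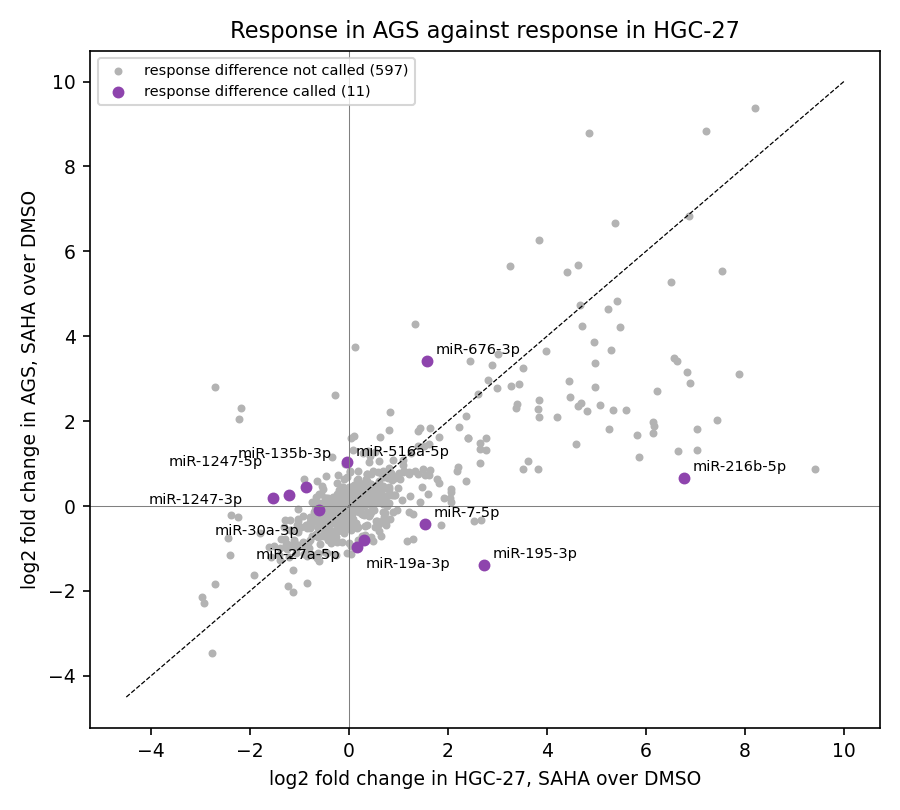
Log2 fold change of SAHA over DMSO in AGS (vertical axis) against that in HGC-27 (horizontal axis) for 608 microRNAs, with the line of equal change dashed. Purple points are the 11 microRNAs whose response was called different between the lines, among them miR-7-5p and miR-195-3p with opposite directions. The AGS falls of miR-7-5p and miR-195-3p were kept in 4 and 7 of 13 alternatives.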

How the data were processed

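Per the labels, TRIzol was used to extract total RNA and an NEBNext kit for small RNA to make libraries. Cutadapt and Novoalign 2.07.11 are named in the submitters' processing notes, whereas genome build, microRNA release and counting rule were not given in the sources used here. Deposited values are whole-number counts per mature microRNA and hairpin. The smallest listed count was 2 and blanks were read as 0. For each name the hairpin with the highest total over 12 libraries was used, and 860 predicted entries were left out. Near-identical microRNAs share reads.

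edgeR 4.0.16 (R 4.3.3, TMM, filterByExpr over 4 groups, quasi-likelihood test, 8 residual degrees of freedom) was fitted to all 12 libraries, with Benjamini-Hochberg adjustment over the 608 tested. For edgeR results the SE is the absolute log2 fold change divided by the square root of the F value of the test. Arm ratios were tested with limma 3.58.1 on log2 counts with an offset of 0.5, and DESeq2 1.42.0 was an alternative. Positions came from GENCODE 29 on GRCh38 and matched 607 of the 608. RefSeq sequences matched 540. The members, the 30 lists and the rule for naming microRNAs were chosen with earlier results of these data known. The rule took the 10 largest separated changes of at least 10 CPM in each direction, the 10 most abundant, the 6 most abundant changes of 1.5-fold or more in each direction, the largest differences from HGC-27, the called or most abundant list members, the leading seed families and arm ratios, and names listed in a single AGS group. Others are said to be chosen after their values were seen. The seeds AAAGUGC and GGCAGUG and the hairpin mir-27b were also given outside this rule. In simulated AGS data with 540 microRNAs tested, 84.5% of 4-fold, 61.9% of 2-fold and 21.7% of 1.5-fold changes were recovered, with 3 false calls. The libraries had no molecular identifiers, so intervals and floors cover counting error only.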

Additional observations from a re-analysis of the deposited data

Results flagged for a closer look

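The responses of AGS and HGC-27 were set against each other in the fit of all 12 libraries, and 11 microRNAs had a response whose difference, AGS minus HGC-27 on the log2 scale, passed an adjusted p of 0.05 in edgeR's quasi-likelihood test. Lower in AGS were miR-216b-5p by -6.10, miR-195-3p by -4.11, miR-7-5p by -1.95, miR-19a-3p by -1.13 and miR-27a-5p by -1.10, and higher were miR-676-3p by 1.85, miR-1247-3p by 1.71, miR-135b-3p by 1.45, miR-1247-5p by 1.30, miR-516a-5p by 1.07 and miR-30a-3p by 0.51. The value of miR-216b-5p depends on the prior count of the fit, since HGC-27 held none with DMSO.

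The levels not given above are these. miR-1247-3p in AGS stood at 57.4, 63.3 and 66.8 CPM with SAHA and 51.2, 56.3 and 57.6 CPM with DMSO and in HGC-27 went from 71.9 ± 12.5 to 24.9 ± 3.24 CPM (mean ± SD, n = 3, difference 1.71, SE 0.22, adjusted p = 0.0027). Its partner miR-1247-5p in AGS stood at 58.6, 49.2 and 44.6 CPM with SAHA and 39.8, 28.98 and 43.5 CPM with DMSO and in HGC-27 went from 65.004 ± 3.71 to 35.8 ± 5.03 CPM (difference 1.30, SE 0.25, adjusted p = 0.026). For both the AGS groups were not called apart, whereas HGC-27 fell. miR-135b-3p in AGS stood at 8.03, 7.72 and 6.19 CPM with SAHA and 6.68, 5.996 and 5.62 CPM with DMSO and in HGC-27 went from 125 ± 8.38 to 54.2 ± 7.003 CPM (difference 1.45, SE 0.22, adjusted p = 0.0083). miR-30a-3p in AGS stood at 4169.9, 4023 and 4438 CPM with SAHA and 4301, 4674 and 4568 CPM with DMSO and in HGC-27 went from 5357 ± 222 to 3510.5 ± 147 CPM (difference 0.51, SE 0.10, adjusted p = 0.029), the smallest difference of the 11.

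Of the 11 differences, those of miR-216b-5p, miR-195-3p, miR-7-5p, miR-27a-5p, miR-1247-3p and miR-135b-3p were called without each AGS library in turn. The miR-676-3p, miR-30a-3p and miR-1247-5p calls ended without SAHA 1, SAHA 2, DMSO 1 or DMSO 2 of AGS (adjusted p from 0.071 to 0.25), and the miR-30a-3p call also without SAHA 3 (0.12). The miR-516a-5p call ended without SAHA 1 (0.13) or SAHA 2 (0.067) and the miR-19a-3p call without SAHA 2 (0.076). Without SAHA 2 of HGC-27, an alternative added after the data were seen, the differences of miR-676-3p, miR-30a-3p, miR-1247-5p and miR-516a-5p were not called (adjusted p from 0.089 to 0.29) and 8 calls were made in all.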

How the results depend on the processing

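In AGS no called value among the microRNAs, seed families and hairpins followed over the alternatives changed its direction. The seeds AAAGUGC and GGCAGUG and the hairpin mir-27b were not followed in this way. The 161 calls became 153 with plain totals (116 higher, 37 lower), 159 with DESeq2 size factors (84 and 75), 167 with DESeq2's Wald test (87 and 80), 129 with no filter on low counts (75 and 54), 120 with AGS libraries alone (72 and 48) and 171 with predicted entries in the fit (59 and 112). In all 13 alternatives 30 higher and 33 lower calls were kept. The endings given above for single microRNAs are mostly those without a library or with plain totals. A call without a stated ending was thus not always kept in all 13. Leaving out 1 library gave 97 to 145 calls in AGS, 6 to 20 differences between the lines, 69 to 99 seed families and 7 to 13 arm ratios. Differences between the lines, 11 as reported, came to 9 with DESeq2 size factors (9 of the 11 kept), 13 with plain totals (11 kept), 31 with DESeq2's Wald test (15 higher, 16 lower, 11 kept) and 11 with no filter (9 kept). Seed families came to 121 with plain totals (95 higher, 26 lower), 114 with DESeq2 size factors and 119 with the scaling of the single microRNAs, the last added after the data were seen. Arm ratios came to 12 with hairpins of shared mature names and 7 with an offset of 5, under which mir-1296 changed by -3.56. The causes of these changes were not tested. The labels do not say whether replicate numbers pair the AGS libraries. Deviations of same-numbered libraries were correlated at 0.009, 0.026 and -0.099, values too few to show that no batch was shared. A replicate block gave 92 AGS calls (49 higher, 43 lower), 1 difference between the lines (miR-7-5p), 77 seed families and 5 arm ratios. A call lost under the block is not a smaller effect. At 3 libraries a group and 3 counts as 0.835 to 1.40 CPM, a fold for a microRNA blank with DMSO is a lower bound.

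Among named microRNAs that were not called in AGS, some log2 fold changes near 0 changed sign. With plain totals miR-27b-3p was 0.033 and miR-30a-3p 0.0904. With DESeq2 size factors miR-100-5p was -0.0298, let-7f-5p -0.00274 and miR-181a-5p -0.0295, in its Wald test -0.0298, -0.00273 and -0.0299, and with no filter miR-100-5p was -0.00773 and miR-181a-5p -0.00717. With predicted entries in the fit miR-100-5p was -0.198, let-7f-5p -0.168, miR-181a-5p -0.2002, miR-27a-3p -0.0188 and miR-1247-3p -0.0263, and under the block miR-143-3p was 0.0869. Leaving out 1 AGS library gave -0.217 to 0.138 for miR-100-5p, -0.126 to 0.881 for miR-148a-3p, -0.0613 to 0.0649 for let-7f-5p, -0.0895 to 0.0231 for miR-181a-5p and -0.79 to 0.706 for miR-143-3p.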

Other observations

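The compositions within a family that moved in AGS, which need no scaling, can be set beside those of HGC-27. The miR-449 members made up 2.38%, 2.70% and 2.36% of the miR-34 and miR-449 sum with DMSO in HGC-27 and 42.8%, 40.4% and 43.4% with SAHA, a range that overlaps the 41.3% to 50.9% of AGS with SAHA. The sum itself was higher in HGC-27, at 811, 824 and 841 CPM with SAHA and 629, 799 and 808 CPM with DMSO. For miR-181, the log2 ratio of miR-181a-3p to miR-181a-2-3p in HGC-27 was -1.23, -0.36 and -0.82 with SAHA and -4.69, -4.87 and -5.02 with DMSO. The ratio was thus higher with SAHA in each line without overlap. These measures were chosen after their values were seen and carry no test.

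By sequence, 26.2% of the 65 lower calls with a RefSeq entry began with U, against 47.0% of the 83 higher calls and 42.1% of the 392 others. Median length was 22 bases in each set. In the 138 hairpins with both arms tested, the less abundant arm was called lower in 24 and higher in 13, and the more abundant arm lower in 19 and higher in 22. The 2 summaries of the arm balance differed in sign: the median change of the log2 ratio of the less to the more abundant arm was -0.11 over hairpins, whereas the median ratio within a library was -3.50, -3.37 and -3.51 with SAHA and -3.57, -3.73 and -3.57 with DMSO.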
